A study of Mus musculus with 6 samples.

Results

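Germ cells of Tex15 knockout pups were compared with those of wild-type pups by whole-genome bisulfite sequencing, in which an unmethylated cytosine is read as T and a methylated cytosine stays C. The comparison used 4 of the 6 samples of the series: Tex15WT 8 and Tex15WT 9 carry both copies of Tex15, and Tex15KO 3 and Tex15KO 16 carry none. The heterozygous samples (Tex15HT) were not used. Each sample is the DNA of 1 male pup at postnatal day 2.5, born to heterozygous parents of mixed strain background. Germ cells were sorted from the testis by the green fluorescence of an Oct4-GFP reporter, about which the labels say no more. The units compared were 1 kb tiles of the 19 autosomes in mm9, each holding 3 or more CpGs and, in every sample used, 10 or more calls. That left 371225 tiles, which are 30.4% of the 1222925 autosomal tiles with 3 CpGs. A call is 1 reading of 1 cytosine, and a methylation level is the share of calls read as C, in percent.

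DNA methylation is erased in the precursors of germ cells and set again in male germ cells around birth. In this window the PIWI proteins, guided by small RNAs called piRNAs, direct methylation to retrotransposons, repeated elements that can copy themselves into new places. TEX15 is known as a testis protein of this pathway, and the study asked about the methylation of retrotransposons without it. Whether the methylation levels match the cell label was not checked here. The knockout could not be checked: the table lists only cytosines that each genotype covered, so a deleted stretch of Tex15 would have no lines.

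The library of Tex15KO 3 stood apart from the other 3. It had no call at 74.5% of the autosomal cytosines, against 1.69 to 9.20% in the others, and a median of 8 calls at the cytosines it did cover, against 2 to 4. At cytosines with 6 to 10 calls, all calls were alike at 96.5% of them in Tex15KO 3 and at 58.1 to 65.5% in the others. Of the tested tiles, 69.1% lay at exactly 0 or 100% in Tex15KO 3, while the other 3 libraries had 15.5 to 26.8%. Calls at 1 cytosine thus rarely differed from each other in this library. For this reason results are also given with each cytosine counted once per sample, by the majority of its calls, and with the 2 Tex15KO samples read separately. Counting once does not make neighbouring cytosines independent, since they can lie on the same read pair. Autosomal calls numbered 27203427 in Tex15KO 3, 52395924 in Tex15KO 16, 32650203 in Tex15WT 8 and 33527563 in Tex15WT 9.

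**Figure D1:**
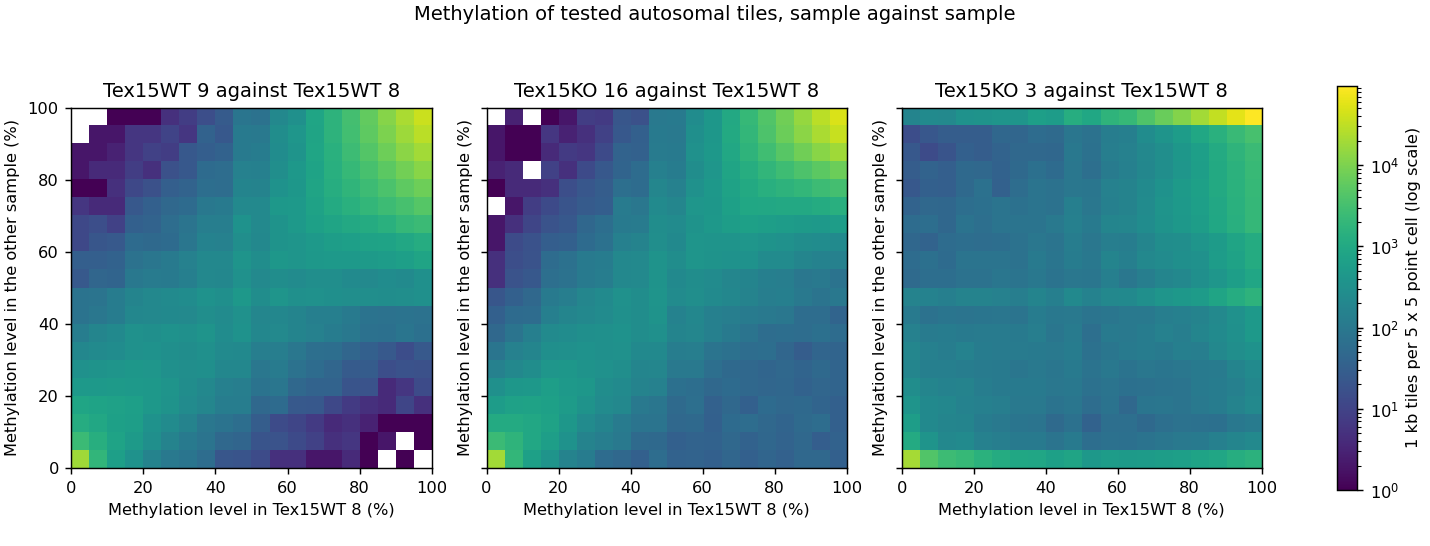
Methylation level of the 371225 tested 1 kb tiles in Tex15WT 9, Tex15KO 16 and Tex15KO 3 (y axes, percent) against Tex15WT 8 (x axes, percent), with the number of tiles per cell of 5 by 5 points as colour on a log scale and empty cells in white. Of the 269393 tiles at 80% or more in Tex15WT 8, 37 lay under 20% in Tex15WT 9, 700 in Tex15KO 16 and 6272 in Tex15KO 3, whose tiles gather at 0 and 100%.

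Mean levels over the tested tiles were close in the 4 samples (76.1 to 78.8%), and a small set of tiles that was methylated in the wild type was nearly unmethylated in the knockout. The plot of tile levels, sample against sample, shows this set as the lower right corner. Among 269393 tiles with at least 80% methylation in Tex15WT 8, a level under 20% was read for 37 tiles (0.0137%) in Tex15WT 9, for 700 (0.260%) in Tex15KO 16 and for 6272 (2.33%) in Tex15KO 3. The lower right corner was thus filled more by both knockout libraries than by Tex15WT 9, and most by Tex15KO 3. The opposite corner, under 20% in Tex15WT 8 and 80% or more in the other sample, was also filled most by Tex15KO 3. Its cell from 15% in Tex15WT 8 and 95% in the other sample held 348 tiles in Tex15KO 3. That cell held 1 tile in Tex15WT 9 and 1 in Tex15KO 16. The 6272 tiles of Tex15KO 3 therefore cannot be read as tiles low in the knockout alone.

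The promoters of Pou5f1, Gm52510 and Gm40518 show this difference in named sequence, and they are printed because they were among the windows with the largest decreases in the knockout. Each line gives the 250 bases before the transcription start from RefSeq (GRCm38.p6), 5′ to 3′ on the strand of the gene, with CpGs in capitals. Pou5f1 lies at chr17:35505782-35506031 on the plus strand, Gm52510 at chr2:52131488-52131737 on the plus strand and Gm40518 at chr9:48158749-48158998 on the minus strand, all in GRCm38.p6.
Pou5f1: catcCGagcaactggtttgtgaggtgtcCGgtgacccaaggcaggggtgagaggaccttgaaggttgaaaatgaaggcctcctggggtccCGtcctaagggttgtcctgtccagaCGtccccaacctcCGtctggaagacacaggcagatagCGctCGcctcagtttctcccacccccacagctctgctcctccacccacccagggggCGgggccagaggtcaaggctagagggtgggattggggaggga
Gm52510: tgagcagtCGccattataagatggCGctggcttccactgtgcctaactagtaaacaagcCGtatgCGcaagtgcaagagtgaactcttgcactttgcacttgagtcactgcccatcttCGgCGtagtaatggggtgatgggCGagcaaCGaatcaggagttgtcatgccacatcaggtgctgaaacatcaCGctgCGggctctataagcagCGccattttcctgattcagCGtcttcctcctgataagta
Gm40518: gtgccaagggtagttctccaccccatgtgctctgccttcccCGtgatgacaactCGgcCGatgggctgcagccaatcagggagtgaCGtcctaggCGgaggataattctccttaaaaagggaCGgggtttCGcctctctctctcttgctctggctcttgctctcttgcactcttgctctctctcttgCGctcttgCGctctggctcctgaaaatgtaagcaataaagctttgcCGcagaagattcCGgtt

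Promoter windows were placed on mm9 without converting coordinates, by matching the distances between the CpGs of the RefSeq sequence to the CpG positions of the table. Of 31396 autosomal windows of 300 bases (250 before and 50 after the start), 19582 had at least 5 CpGs, 8042 matched 1 place only, and 7996 of these (7199 genes) were in the order of the RefSeq assembly. The minimum of 10 calls per sample was met by 4172 windows of 3842 genes. Promoters of genes in this set were mostly unmethylated in both genotypes: 3903 windows had a wild-type mean under 20%, and 3789 of these were under 20% in both Tex15KO samples. A wild-type mean over 50% was found for 194 windows, of which 162 stayed over 50% in both knockout samples and 6 were under 50% in both.

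Both knockout samples lay over 30 points below both wild-type samples at 6 of the 4172 windows (0.144%) and over 30 points above them at 1 window (0.024%). The 6 were Gm40518, Gm52510, Gm32362, Pou5f1, 4930481A15Rik and Gm35454, and the 1 above was Gm52202. Most are predicted genes without a known role. edgeR's quasi-likelihood test called 2 windows lower (0.0479%) and 0 higher; unadjusted p-values under 0.05 went to 13 lower and 9 higher windows. limma called 0 windows (131 lower and 60 higher unadjusted), with an adjusted p of 0.0670 for 5 of the 6 lower windows. The 2 edgeR calls, Pou5f1 and Gm32362, are on opposite strands and share sequence, so they are 1 place in the assembly. That place lies in a block read 21.5 to 33.0 times as deeply as its surroundings, described below.

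The Gm52510 window, matched at all 14 of its CpGs, was methylated at 94.1% in Tex15WT 8 and 91.7% in Tex15WT 9, and at 19% in Tex15KO 3 and 13.6% in Tex15KO 16, from 51, 36, 105 and 66 calls. The Gm40518 window, matched at 8 of 15 CpGs, had 82.9 and 93.3% in the wild types and 3.57 and 15.1% in the knockouts, from 35, 15, 56 and 53 calls. The 2 genotypes did not overlap at either window, by the way the windows were chosen. The samples did not all cover the same CpGs of these windows. edgeR's adjusted p was 1 for both, at 15 to 105 calls per sample.

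These 2 windows lie on different chromosomes and share a run of 23 bases around 1 CpG, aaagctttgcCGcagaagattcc, where capitals mark the CpG. In Gm40518 the C of this CpG is 17 bases before the start, and in Gm52510 it is 17 bases after it. At this CpG, Tex15KO 3 had 0 calls in Gm52510 and Tex15KO 16 had 0 calls in Gm40518. On either strand, the whole run was found in 4 of the 31396 windows (0.0127%), and 2 of these 4 were among the 4172 measured, both of them lower. Its 14-base stretch found in most windows, tttgcCGcagaaga, was present in 19 windows (0.0605%), of which the same 2 were measured. The run was sought after these 2 windows had been seen to be low, so it describes them and carries no test.

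The Pou5f1 promoter was the most deeply read of the lower windows. Pou5f1 encodes the transcription factor OCT4, a regulator of pluripotency that is active in early germ cells, and its promoter also drives the reporter used for the sort. In mm9 the window lies at chr17:35642727-35643026, and 10 of its 11 CpGs were matched. It was methylated at 80.9% in Tex15WT 8, 76.2% in Tex15WT 9, 5.20% in Tex15KO 3 and 12.9% in Tex15KO 16. The calls behind these levels were 535, 550, 519 and 1159. Both knockout samples were thus far below both wild types, as the margin for lower windows requires. The means were 78.6% ± 3.36 in Tex15WT and 9.07% ± 5.47 in Tex15KO (SD, n = 2 each, edgeR adjusted p = 0.000647, limma 0.0670).

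The low level in the knockout was found at every well-covered CpG of the sequence printed above. At 160 bases before the start the levels were 84.0 and 90.6% in Tex15WT 8 and 9 and 15.2 and 15% in Tex15KO 3 and 16. At 94 bases before it they were 84.3 and 79.2% against 2.86 and 8.92%, and at 42 bases before it 76.4 and 79.1% against 3.45 and 10.1%. The CpG at 222 bases before the start had only 3, 7, 0 and 16 calls and was nearly unmethylated in every sample that covered it, at 0, 0 and 6.25%. A second RefSeq start of Pou5f1 had a window at 94.5 and 91.9% in the wild types and 98.2 and 95.5% in the knockouts.

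Read depth around this promoter was unlike that of its surroundings. A block of 18 adjoining tiles (mm9 chr17:35634001-35652000) had 90.7 and 84.9 calls per CpG in Tex15WT 8 and 9 and 68.2 and 149 in Tex15KO 3 and 16. The 20 kb on each side had 2.75, 2.83, 3.17 and 4.94, so the block was covered 21.5 to 33.0 times as deeply, in all 4 samples. Reads of the gene itself and of any copy of this sequence in the Oct4-GFP reporter cannot be told apart in these counts. The levels of the Pou5f1 window and tile, and the 2 edgeR promoter calls there, therefore cannot be assigned to the gene alone. Within the block, the genotypes parted around the start: the tile of the start (35642001 to 35643000) had 79.2 and 75.2% in the wild types and 3.86 and 12.7% in the knockouts, the tile before it had 80.1 and 83.9% against 56.1 and 55.5%, and the tile after it 79.1 and 82.3% against 68.1 and 54.5%. The other 15 tiles of the block together had 88.5 and 86.6% against 87.8 and 86.6%. At 10 CpGs upstream of the start, between positions 35641830 and 35642755, depth fell to 24 to 50 calls per sample in all, and the levels there were 23.3, 53.8, 0 and 26.0% in Tex15WT 8, Tex15WT 9, Tex15KO 3 and Tex15KO 16, with the 2 genotypes overlapping.

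**Figure D2:**
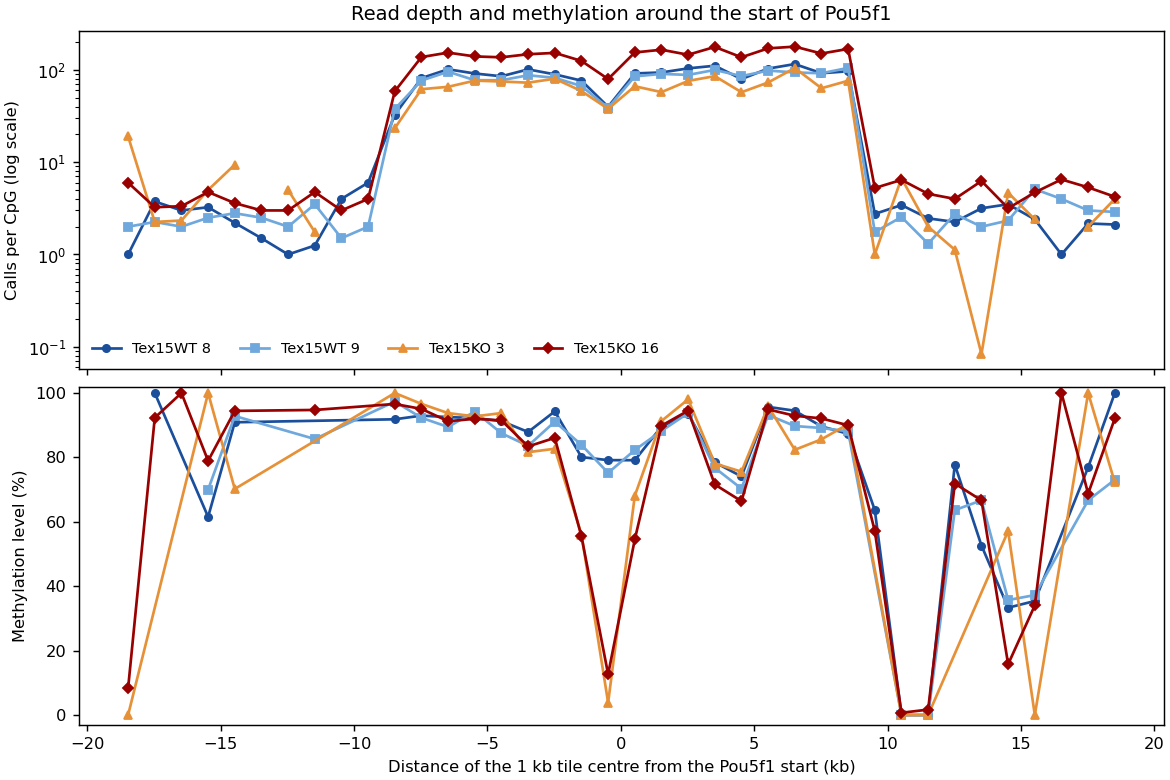
Calls per CpG (top, log scale) and methylation level (bottom, percent, tiles with 10 or more calls) of 1 kb tiles by distance from the Pou5f1 start in kb, 1 line per sample. Depth is raised over 18 kb in all 4 samples, and the tile of the start lies at 3.86 and 12.7% in the 2 Tex15KO samples against 79.2 and 75.2% in the 2 Tex15WT samples.

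Genes of the piRNA and DNA methylation machinery, where they could be read, had too little methylation in the wild type to show such a decrease. Of 25 such genes, 7 had measured windows, 10 in all, and 8 of these were under 20% in all 4 samples. None passed the margin of 30 points in either direction. No wild-type level exceeded 23.7%, so none could be over 30 points lower. Of all measured windows, 0.144% were over 30 points lower and 0.024% over 30 points higher. The median difference of the 10 windows was -0.658 points, against 0 over all measured windows. The windows of Dnmt1, the enzyme that copies methylation at replication, were under 1% in every sample, and that of Tdrkh, a piRNA biogenesis factor, lay at 1.47 and 3.64% in the wild types and at 0 in both knockouts. Piwil1, a PIWI protein of later germ cells, had 8.70 and 11.8% against 0 and 2.56%. Fkbp6, a piRNA pathway co-chaperone, was the gene of the list with windows over 20%: 1 window had 10.9 and 22.0% in the wild types and 35.9 and 26.9% in the knockouts, and the other 8 and 23.7% against 0 and 31.5%.

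Of 20 genes known from germ cells, 5 were measured at 8 windows, and 1 window, that of Pou5f1, was over 30 points lower, where 0.144% of all windows were. The median difference of the 8 windows was -6.22 points, against 0 over all measured windows. It lies between a window of Stk31 at -12.1 points and a window of Kit at -0.311 points. Kit, Stk31 and Pou5f1 each have 2 of the 8 windows, so few genes set this median. Of the 8 windows, 5 were under 20% in all 4 samples. Both Pou5f1 windows lie in the deep block described above, and the other one was 3.67 points higher in the knockout. Kit, the receptor of differentiating spermatogonia, and Gfra1, a receptor of spermatogonial stem cells, lay under 3% in all 4 samples. The 2 overlapping windows of Stk31, a germ cell kinase, had 18.7 and 12.5% in the wild types and 0 and 6.92% in the knockouts at the first, and 18.8 and 12.5% against 0 and 5.51% at the second. Dazl, an RNA-binding protein of germ cells, had 43.1 and 50% in Tex15WT 8 and 9, 0.858% in Tex15KO 3 and 25.8% in Tex15KO 16 (edgeR adjusted p = 1). These levels rest on 51, 20, 233 and 31 calls. The knockout values lay below both wild types in this window but differed from each other by more than the wild types did. The calls also fell unevenly over its CpGs. At 154 bases before the start, Tex15KO 16 had 100% from 1 call and Tex15KO 3 had 0% from 20 calls. Tex15WT 8 and 9 had 100% there, from 2 calls and 1 call.

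Over all tiles, edgeR's quasi-likelihood test called 15 of 371225 lower in the knockout (0.00404%) and 0 higher; unadjusted p-values under 0.05 went to 2434 lower and 1645 higher tiles. limma on log2 ratios called 0, with 7527 lower and 12954 higher unadjusted. Without Tex15KO 3 and without Tex15KO 16, fits with 1 knockout sample, edgeR called 0 tiles, and without cytosines in the top 0.1% of coverage it also called 0. In 14 of the 15, both knockout samples lay below both wild types, an order that being called lower already favours. The share of all tested tiles with this order was not counted. At least 200 calls in each sample were found in 14 of the 15. The test therefore reached tiles that are very deeply read, and most of those changed by few points.

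The clearest of these tiles was on chromosome 13 at 40721001 to 40722000 (24 CpGs). It was methylated at 94.0% in Tex15WT 8 and 91.7% in Tex15WT 9 and at 5.48% in Tex15KO 3 and 15.3% in Tex15KO 16 (edgeR adjusted p = 0.0345). The tile of the Pou5f1 start, described above, had an edgeR adjusted p of 0.00852. On chromosome 11, the tile at 3093001 to 3094000 had 73.4 and 71.9% in the wild types and 30.4 and 24.1% in the knockouts, with 5097 to 12192 calls per sample (edgeR adjusted p = 7.03e-12). These 3 tiles were also the only called ones in which both knockouts were over 30 points below both wild types. Without Tex15KO 3 or Tex15KO 16 their differences were -77.6 and -87.3 points on chromosome 13, -64.5 and -73.3 at the Pou5f1 start and -48.6 and -42.3 on chromosome 11. The calls on chromosome 13 and at Pou5f1 were also lost without either wild-type sample, with differences of -81.3 and -83.6 and of -66.9 and -70.9 points. Without the top 0.1% of coverage the chromosome 13 tile kept a difference of -80.3 points, while that of the Pou5f1 tile was -12.9 points. The chromosome 11 tile no longer met the minimums for testing in that setting. With 1 observation per cytosine the chromosome 11 tile differed by -80.6 points and was not called (edgeR adjusted p = 0.314).

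Chromosome 8 held 3 called tiles in which the wild types differed from each other. At 19785001 to 19786000 the levels were 62.4% in Tex15WT 8 and 29.7% in Tex15WT 9, against 1.73% in Tex15KO 3 and 0.744% in Tex15KO 16 (edgeR adjusted p = 0.000833). The adjoining tile from 19784001 had 55.1 and 22.6% against 4.12 and 2.28%, and the tile from 20019001, 233 kb away, had 58.0 and 24.7% against 1.14 and 1.45%. In these 3 tiles Tex15WT 8 was highest, Tex15WT 9 next and both knockouts under 5%. The 2 stretches of 2 kb share 15 runs of 6 CpGs with equal spacing when 1 of them is read in the opposite direction (20% of the runs of the first and 20.5% of the second), and 0 in the same direction.

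The remaining called tiles were low in the wild type already. On chromosome 17, 6 adjoining tiles from 39980001 to 39986000 had 17439 or more calls in every sample, and their mean levels were 2.49 to 7.52 points lower in the knockout. At the first of them, Tex15WT 8 (6.44%) and Tex15KO 3 (6.55%) overlapped. The tile on chromosome 3 from 5860001 had 8.17 and 13.2% in the wild types and 1.99 and 3.17% in the knockouts, and that on chromosome 16 from 11144001 had 5.76 and 11.8% against 3.44 and 2.82%. The deepest, on chromosome 2 from 98506001, had 37.0 and 39.2% against 36.8 and 37.0%, a difference of -1.26 points.

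When each cytosine was counted once per sample, 14970 tiles had 10 observations in each, and edgeR called 53 of them lower (0.354%) and 0 higher, with 206 lower and 34 higher unadjusted. The fit treats observations of neighbouring cytosines as independent, though they can come from the same molecule. These calls and their p-values may therefore overstate the evidence. The 53 lay on 17 autosomes and were over 50% in both wild types. Their mean levels were 90.3% in Tex15WT 8, 94.3% in Tex15WT 9, 3.67% in Tex15KO 3 and 2.75% in Tex15KO 16, and their decreases ran from -71.9 to -100 points. All 53 also had both knockouts over 30 points below both wild types with all calls counted, and 2 of them were among the 15 tiles above, that on chromosome 13 and that of the Pou5f1 start. The median called tile had 14 CpGs, and the median tested tile 25.

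In 3 of the 53 tiles every observation was methylated in both wild types and none was in either knockout. How many molecules these observations stem from is not known. They lay on chromosome 9 from 116896001 (10 to 19 observations per sample, edgeR adjusted p = 0.00153), on chromosome 4 from 20222001 (13 to 16 observations, 0.00157) and on chromosome 7 from 77338001 (13 to 14 observations, 0.00225). None was close to a placed gene start: the nearest were Rbms3 at 265 kb, Prdm13 at 1391 kb and 4930402F11Rik at 698 kb. A nearest start here is the nearest of the 7996 placed RefSeq windows, so a gene whose window was not placed may lie closer.

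Without a model, both knockout samples lay over 30 points below both wild types in 2361 tiles (0.636%) and over 30 points above them in 408 (0.11%), a ratio of 5.79 lower tiles per higher tile. The wild-type level limited these counts unequally. Tiles at 70% or more in a wild type could not be over 30 points higher. In Tex15WT 8, 93548 tiles lay at 70 to 90% and 200109 at 90% or more. Tiles under 30% could not be over 30 points lower, and Tex15WT 8 had 30058 under 10% and 15837 at 10 to 30%. In the lower tiles the mean level was 79.6% in Tex15WT 8, 78.7% in Tex15WT 9, 11.2% in Tex15KO 3 and 20.9% in Tex15KO 16. Both knockouts were under 10% in 560 of them (23.7%), and 1459 were over 70% in both wild types. Tex15KO 3 was at exactly 0% in 47.8% of the lower tiles and Tex15KO 16 in 6.95%. In the higher tiles the levels were 40.8 and 40.5% in the wild types and 94.8 and 82.7% in the knockouts.

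The balance between lower and higher tiles depended on the wild-type samples. Without Tex15KO 3 there were 3611 lower and 776 higher tiles, and without Tex15KO 16 there were 24791 and 9989. Without Tex15WT 9 the counts were 3567 and 2921, and without Tex15WT 8 they turned round, to 3875 lower and 5983 higher. Tex15WT 9 alone has the lowest mean over tested tiles, 76.1% against 78.0 to 78.8% in the other 3. With Tex15KO 16 as the only knockout sample and all 663324 tiles with 10 calls in it and in both wild types, 6460 tiles were lower (0.974%) and 1422 higher (0.214%).

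On each autosome the largest decrease among tiles with 20 or more calls per sample was close to complete. Over the 19 autosomes these tiles fell from wild-type means of 81.2 to 98.8% to knockout means of 0 to 16.6%, with differences between -79.4 and -95.5 points. The tile on chromosome 17 from 22963001 had 100 and 93.9% in the wild types and 2.94 and 0% in the knockouts. That on chromosome 11 from 7744001 had 92.6 and 100% against 1.92 and 0%, and that on chromosome 4 from 8412001 had 96.2 and 97.8% against 0 and 3.70%. The genotypes did not overlap in any of the 19, by the way they were chosen. With 20 to 133 calls per sample, none was called: the edgeR adjusted p ran from 0.213 to 1, and limma's from 0.0980 to 0.121.

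**Figure D3:**
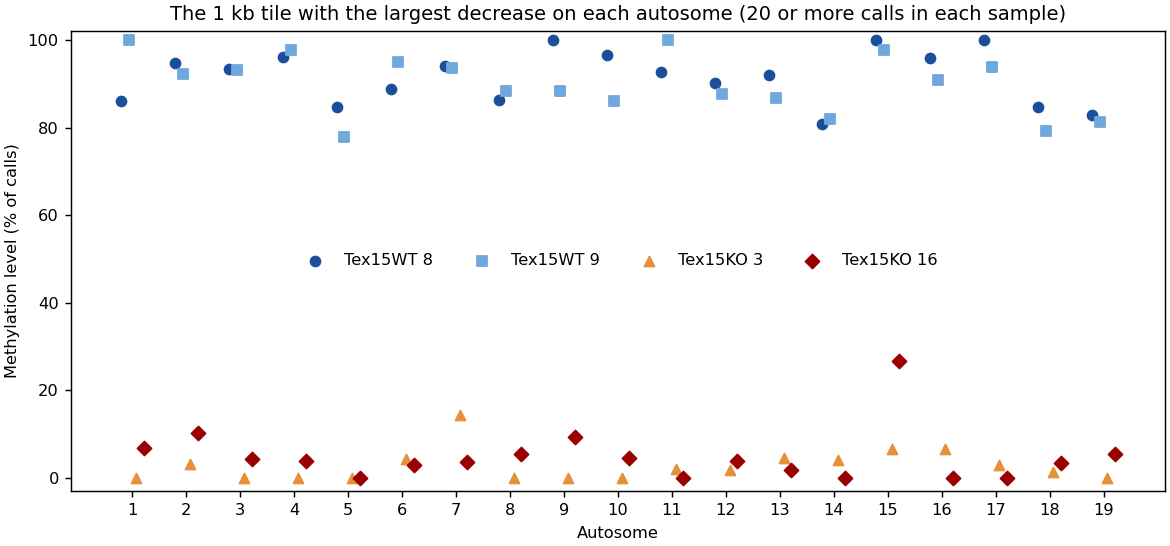
Methylation level (percent of calls) of the 4 samples in the 1 kb tile with the largest decrease on each autosome, among tiles with 20 or more calls in each sample. All 19 tiles have both Tex15WT samples at 77.8% or more and both Tex15KO samples at 26.7% or less.

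Most of these 19 tiles lay far from placed gene starts. The exceptions within 50 kb were the tiles on chromosome 1 from 134307001, at 6.53 kb from Dstyk and 19.5 kb from Tmcc2, on chromosome 3 from 95210001, at 27.8 kb from Arnt, on chromosome 15 from 93469001, at 43.2 kb from Prickle1, and on chromosome 17, at 40.6 kb from Zfp945. Dstyk encodes a kinase, and Arnt a partner of transcription factors that respond to hypoxia. The chromosome 1 tile had 86.0 and 100% in the wild types and 0 and 6.67% in the knockouts, and the chromosome 3 tile 93.3 and 93.2% against 0 and 4.29%.

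The same distance was measured for tiles on the autosomes with placed starts, which hold 2279 of the lower, 398 of the higher and 358379 of the tested tiles. The lower tiles' median distance to a placed start was 381 kb, against 201 kb for the higher tiles, 96.7 kb for all tested tiles and 103 kb for tiles over 50% in both wild types. Within 2 kb of a placed start lay 10 lower tiles (0.439%), 6 higher tiles (1.51%), 3.96% of all tested tiles and 1.01% of the tiles over 50%. These shares are a description and carry no test.

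Lower tiles often had a lower neighbour where the neighbour was tested. They formed 2226 runs, of which 2100 were single tiles, 117 were 2 adjoining tiles and 9 were 3; most neighbouring tiles were not tested, so these counts do not give the length of the stretches. Of the tested tiles next to a lower tile, 36.9% (270 of 731) were lower too, at a distance of 2 tiles 9.96% were, at 3 tiles 3.90%, and at 4 to 8 tiles between 2.18 and 3.78%, against 0.636% of all tested tiles. For higher tiles the share was 2.63% (6 of 228) at 1 tile and 0 at 2 tiles. At 3 to 8 tiles it was between 0 and 1.28%, against 0.11% of all tested tiles.

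Among the runs of 3 tiles with most calls, the deepest was on chromosome 11 from 3092001 to 3095000, which contains the called tile given above; there the levels were 72.2 and 69.9% in the wild types and 28.0 and 22.8% in the knockouts. On chromosome 13 from 100993001 to 100996000, 39 CpGs had 77.8 and 90.5% against 4.18 and 14.7%. On chromosome 10 from 67134001 to 67137000, 32 CpGs had 78.4 and 84.1% against 3.37 and 11.4%. On chromosome 11 from 91782001 to 91785000 the knockouts were less low, at 24.6 and 29.3%, against 83.8 and 85.8% in the wild types.

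**Figure D4:**
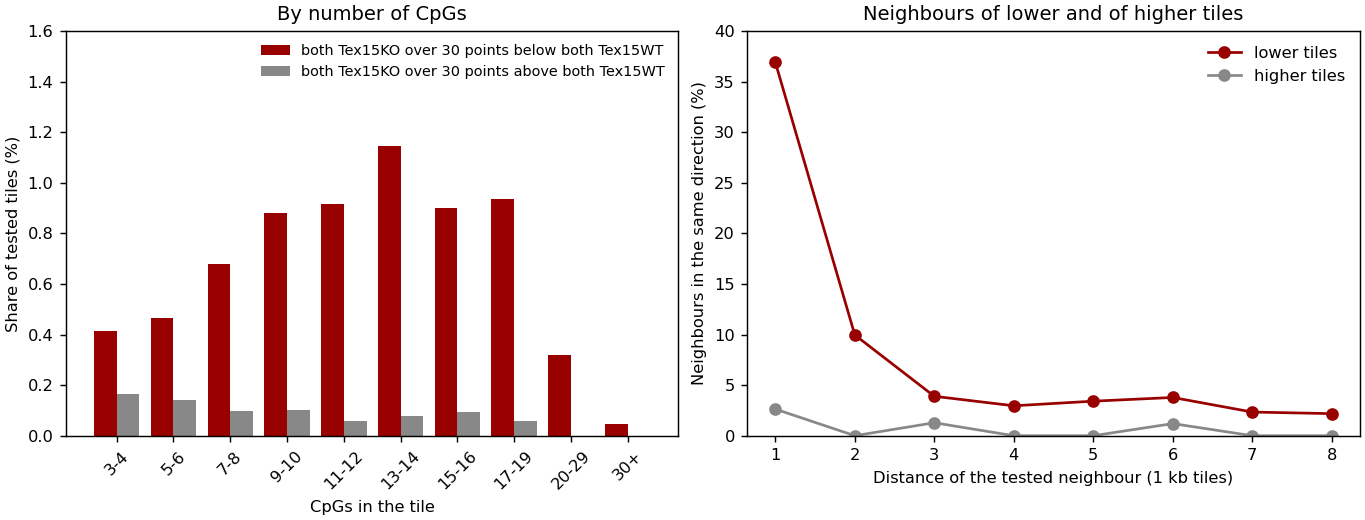
Left, share of tested tiles (percent) in which both Tex15KO samples lay over 30 points below (red) or above (grey) both Tex15WT samples, by number of CpGs in the tile. Right, share of tested neighbours (percent) in the same direction by distance in 1 kb tiles from a lower or a higher tile; the share beside lower tiles falls from 36.9% at 1 tile to 3.90% at 3 tiles.

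The share of lower tiles rose with the number of CpGs and then fell, and that of higher tiles fell. Of tiles with 3 to 4 CpGs 0.413% were lower and 0.164% higher, and of tiles with 13 to 14 CpGs 1.15% were lower and 0.0795% higher. Tiles with 20 or more CpGs, of which there were 17960, held 34 lower and 0 higher. Most CpG-rich tiles are unmethylated in the wild type and could not be lower. Among tiles over 50% in both wild types the share of lower ones rose through every class, from 0.396% at 3 to 4 CpGs through 1.71% at 15 to 16 and 2.62% at 17 to 19 to 3.30% at 20 to 29 (26 of 788) and 15.4% at 30 or more (4 of 26).

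The CpG spacing of the lower tiles recurred elsewhere in the genome in some cases, given here as a description without a test. A run of 6 CpGs whose 5 distances were found at 10 or more places, read in either direction, was called recurring, which gave 654 patterns. Such a run lay in 132 of the 2361 lower tiles (5.59%), in 1 of the 408 higher tiles (0.245%), in 1.15% of all tested tiles and in 0.305% of tiles over 50% in both wild types. Among the 53 tiles called with 1 observation per cytosine, 22 held one, against 15.5% of the 14970 tiles tested in that way. These spacings carry no element name, since no repeat annotation was used here.

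The tiles could also be chosen in 1 pup of each genotype and read in the other. The choice of a gap over 40 points between Tex15KO 16 and Tex15WT 8 gave 3526 tiles. In these, the samples not used for the choice had a mean of 32.9% (Tex15KO 3) and 71.8% (Tex15WT 9), while over all tiles they had 78.8 and 76.1%. Tex15KO 3 was over 30 points below Tex15WT 9 in 62.7% of the chosen tiles and in 8.40% of all tiles. By CpG number the share was 60.2% for 3 to 9 CpGs, 68.7% for 10 to 19 and 63.3% for 20 or more, against 8.89, 8.25 and 1.68% of all tiles in those classes. Tiles are not replicates, so these shares describe 1 pair of pups.

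The reverse choice gave far less. A gap over 40 points between Tex15KO 3 and Tex15WT 9 was found in 21271 tiles, and in these Tex15KO 16 had 72.4% and Tex15WT 8 78.2%. There, 11.8% of tiles had Tex15KO 16 over 30 points below Tex15WT 8, against 1.70% of all. Most tiles that were low in Tex15KO 3 were therefore methylated in the other knockout.

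Around the tiles chosen in Tex15KO 16, the low stretch in Tex15KO 3 was about as wide as the tile and its neighbours. In bins of 500 bp its mean was 32.3% at the tile centre, 39.0 and 38.0% at 500 bp on either side, 57.4 and 56.2% at 1000 bp and 68.4 and 69.1% at 1500 bp. Tex15WT 9 had 72.0% at the centre and 77.9 and 78.4% at 1500 bp. From 2500 bp outwards the samples differed by less than 3 points in every bin, in both directions.

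**Figure D5:**
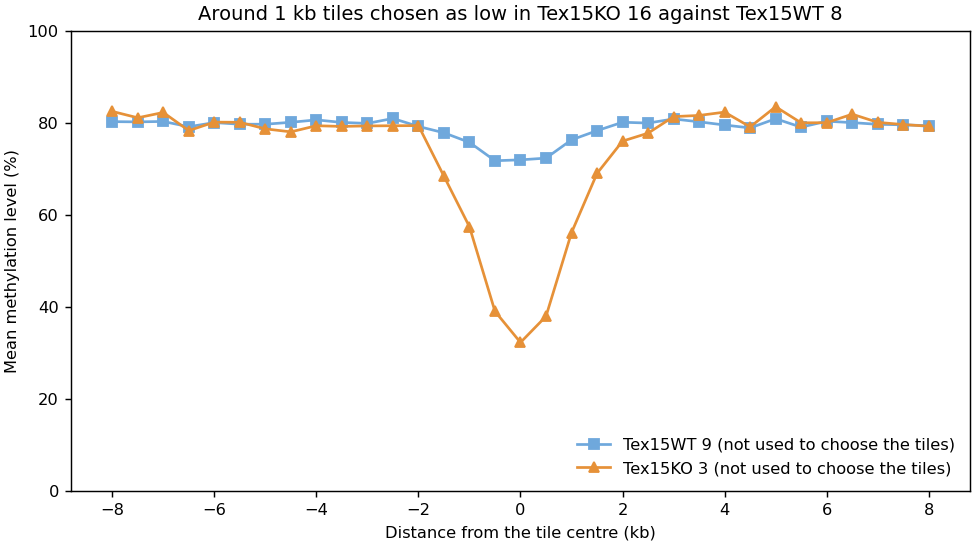
Mean methylation level (percent) in bins of 500 bp by distance in kb from the centre of 3526 tiles chosen as over 40 points lower in Tex15KO 16 than in Tex15WT 8, read in the 2 samples not used for the choice. Tex15KO 3 falls to 32.3% at the centre, where Tex15WT 9 has 72.0%, and the lines meet at about 2500 bp.

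Tiles higher in the knockout were fewer. The largest increases with 20 or more calls in each sample were 2 adjoining tiles on chromosome 8 and 1 on chromosome 3. The chromosome 8 tile from 49427001 had 8 and 3.57% in Tex15WT 8 and 9 and 100% in both knockouts, and the next tile, from 49428001, had 16.3 and 0% against 74.4 and 90.2%. The tile on chromosome 3 from 22206001 had 3.77 and 22.0% against 100 and 84.4%. The edgeR adjusted p was 0.936 for the first and 1 for the others.

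Over the whole of the autosomes the direction of the difference depended on how calls were weighted. All autosomal calls together were methylated at 65.6% in Tex15WT 8, 64.6% in Tex15WT 9, 68.6% in Tex15KO 3 and 65.9% in Tex15KO 16, or 65.1% ± 0.703 and 67.3% ± 1.90 (SD, n = 2 each; two-sided exact permutation test, p = 0.333, the smallest that 2 against 2 samples can give). Calls in tiles of 3 to 9 CpGs were methylated at 78.5% ± 1.40 in Tex15WT and 81.3% ± 2.84 in Tex15KO, and those in tiles of 10 to 19 CpGs at 47.0% ± 0.534 and 49.4% ± 3.33 (exact permutation test, p = 0.667 for both). Calls in tiles of 20 or more CpGs had 17% ± 0.162 and 14.2% ± 2.02 (exact permutation test, p = 0.333). Over cytosines with 5 or more calls in each sample the knockout mean was lower, at 52.1% against 55.2%, a difference of -3.05 points. With 1 observation per cytosine the differences were -0.189 points over all autosomes and -0.240, -0.114 and 0.439 in the 3 classes.

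The tiles that were lower were found on every autosome. Their share ran from 0.352% on chromosome 11 to 1.0% on chromosome 3, and that of higher tiles from 0.0552% on chromosome 11 to 0.242% on chromosome 15. The mean tile level was 0.836 to 1.72 points higher in the knockout on each autosome, a sign that followed the weighting of calls as above. The genotypes overlapped, and Tex15KO 16 lay below Tex15WT 8 on most autosomes. On chromosome 1 they had 78.4 and 79.2%, while on chromosome 15 they had 78.9 and 78.5%. Over all tested tiles the means were 78.3% in Tex15WT 8, 76.1% in Tex15WT 9, 78.8% in Tex15KO 3 and 78.0% in Tex15KO 16.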

How the data were processed

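The authors deposited 1 table of raw counts, per the file headers: coverage, C calls and T calls for each CpG cytosine and strand. The submitters' processing notes name mm9, BSMAP, methylKit and Bismark. Roles, versions, duplicate removal and the lambda conversion rate were not given in the sources used here. Coverage equalled C plus T at every cytosine. About 10 ng of DNA per pup was read as pairs of 75 nt, per the labels' protocols. Autosomal calls per sample ran from 27203427 to 52395924; reads without molecular identifiers are not independent, so depth is an upper limit of precision.

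Strands were merged and calls summed in 1 kb tiles. edgeR 4.0.16 (R 4.3.3; glmQLFit, glmQLFTest, an intercept per sample, Benjamini-Hochberg over all tiles, threshold 0.05) was the main test, and limma 3.58.1 (pseudocount 1) an alternative. edgeR's prior degrees of freedom were infinite, so all tiles shared 1 spread and a tile's p does not measure how its own pups differed. Counts past a margin of 30 points carry no test. The scripts were tested on simulated data.

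The members, gene lists and tests were chosen with earlier results of these data known, and the promoter matching, the shared run and the gene lists after the tiles had been seen. Named were called tiles, the largest decrease per autosome with 20 calls per sample, the 5 longest runs, the 5 called tiles with most calls in the shallowest sample and the 3 largest increases. Promoter sequences are from RefSeq (GRCm38.p6). Alternatives were other call and CpG minimums, tile sizes, margins, thinned calls, deepest cytosines left out and each sample left out. Tiles on 1 autosome are given in ranges only.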

Additional observations from a re-analysis of the deposited data

How the results depend on the processing

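The number of called tiles (15) was 10 with 5 calls per sample, 22 with 20 or 30 calls, 15 with 10 CpGs and 19 with 5 kb tiles. It was 25 with 500 bp tiles, 31 with all 6 samples, 53 with 1 observation per cytosine, 6 with a difference of at least 25 points, 35429 with Fisher's exact test on pooled calls (16667 lower and 18762 higher), and 0 with limma, with calls thinned to the shallowest sample (2201 lower and 2632 higher unadjusted) and without the top 0.1% of coverage (2313 and 1562 unadjusted, in edgeR). Leaving out 1 sample gave 0 to 16 called tiles, where the lone sample of a genotype is assumed to vary like the others: 0 when Tex15KO 3 was left out (with unadjusted p-values of edgeR, 4367 tiles below and 2993 above) and 0 when Tex15KO 16 was left out (29107 and 33987). The cause of these differences was not tested. Of the 15 tiles, 10 remained called with 5 calls, 2 with 1 observation per cytosine and 0 with limma; with 1 observation the differences of the tiles on chromosome 16 from 11144001 and chromosome 17 from 39980001 and 39982001 turned to 1.55, 0.595 and 0.202 points.

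Lower tiles numbered 4097 with 5 calls, 774 with 20, 285 with 30, 802 with 10 CpGs, 157 with 1 observation per cytosine, 3698 with a margin of 20 points and 1060 with 50, and 3567 to 24791 with 1 sample left out. Higher tiles numbered 1189, 77, 17, 68, 8, 2031 and 28 under the same settings, 92 with 5 kb tiles, 648 with thinned calls, and 776 to 9989 with 1 sample left out. With Tex15KO 16 alone, an alternative added after seeing the data, 6460 and 1422 tiles were lower and higher. Lower tiles outnumbered higher ones in each of these settings except without Tex15WT 8, while the wild-type level limited both directions unequally.

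The level of all autosomal calls, 2.14 points higher in Tex15KO, was -3.05 points over cytosines with 5 or more calls in each sample and -0.189 with 1 observation per cytosine. The same 2 settings gave -1.65 and -0.240 for tiles of 3 to 9 CpGs and -4.02 and -0.114 for 10 to 19 CpGs. For 20 or more CpGs, where the main value was -2.88, the mean over tiles gave 0.185 and 1 observation 0.439. Without the top 0.1% of coverage the difference was -0.143 for 20 or more CpGs and 0.912 for all autosomal calls. In that setting it was 1.49 for 3 to 9 CpGs and 0.898 for 10 to 19 CpGs. The difference in the tiles chosen in Tex15KO 16 and Tex15WT 8, -38.8 points, was -43.9 with 20 calls, -55.1 with a margin of 60 points and -5.76 with the choice in the other 2 samples. No paired analysis was possible because the genotypes share no replicate number. Near-complete decreases in tiles of 20 to 133 calls were not called; the cause was not tested.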
